A study of Rattus norvegicus with 26 samples.

Results

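The axon guidance ligands and receptors were taken by gene name from the deposited normalized counts of the dentate gyrus (DG): semaphorins of classes 3 to 7, plexins, neuropilins 1 and 2, Eph receptors, ephrins, Slits, Robos, netrins 1 to 5, Unc5 receptors, Dcc and contactins. The names matched 74 genes on 110 transcript rows, of 17910 gene IDs on 24012 rows in all, and 73 of the 74 averaged 5 normalized counts or more and were tested among 15595 genes. The rule used gene names and the mean over all rats, and no difference between groups. The 1 gene below the limit was Efna5, with a mean of 3.96, and the members just above it were Sema3a (5.64), Ntn5 (6.39) and Epha1 (6.61).

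All animals were male F344 rats, an inbred strain, 6 months of age at the start of treatment. The Dox group (n = 8) received doxorubicin, an anthracycline used in chemotherapy, by intraperitoneal injection of 2 mg/kg once weekly for 4 weeks. The Dox + ABT group (n = 8) received the same doxorubicin and, by oral gavage, 12 mg/kg of ABT-263, a senolytic that inhibits Bcl-2 family proteins, on 5 consecutive days every other week. The Veh group (n = 10) received gavage of vehicle and came from an ongoing study of brain aging, so a difference in origin and treatment cannot be told apart in comparisons with Veh. No group received ABT-263 without doxorubicin. The DG of a single hemisphere gave 1 library per rat, and the p-values below measure the spread between rats.

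Axon guidance cues steer growing axons and, in the adult brain, take part in synapse maintenance, vessel biology and contact between glia and neurons. Semaphorins act through plexins, the secreted class 3 members with neuropilins as co-receptors. Ephrins bind Eph receptor tyrosine kinases with signals running in both directions, Slits bind Robos, and netrins bind Dcc and the Unc5 receptors. Contactins are cell adhesion molecules of the immunoglobulin superfamily. In the DG, mossy fiber axons of the granule cells and the afferents to their dendrites are laid down with the help of such cues.

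The values were counts divided by the authors' Median Ratio factor, so the read depth of a library was not available from them and no counting interval is given. Prox1, the transcription factor that defines granule cells, lay between 1680 and 3587 normalized counts over the 26 libraries, and C1ql2, another granule cell marker, between 3980 and 9272. C1ql2 was lower in Dox + ABT than in Veh by a difference of -0.46 (p = 0.000697), or -0.33 with the covariate for library kind described next (p = 0.00812), and was the 1 of 8 tested granule cell markers called there. Among markers of the neighbouring CA fields, Wfs1 ran from 884 to 13690 and Pou3f1 from 25.3 to 1196 over the libraries, and the part of this spread in the members' values was not tested. The libraries fell into 2 kinds along the leading principal component of values centred within groups, which held 28.4% of their variance. Each library was placed on it around the mean of all libraries, and the kinds were split at the widest gap. A difference between groups along this component can therefore enter the kind and the values given with it as a covariate. The first kind had 16 libraries (4 Veh, 5 Dox and 7 Dox + ABT), and the second kind had 10 (Veh 1, 2, 3, 4, 9 and 12, Dox 5, 7 and 14, and Dox + ABT 4). Ribosomal protein genes made up 0.645% to 1.27% of a library's total in the first kind and 1.34% to 2.16% in the second. The kinds were found from the values and no label names them. Of the second kind were 6 of 10 Veh rats but 1 of 8 Dox + ABT rats. Values of named members are therefore mostly given also with library kind as a covariate or within the first kind. This was done where a call or a sign changed or a value moved by over 1.5 times.

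**Figure D1:**
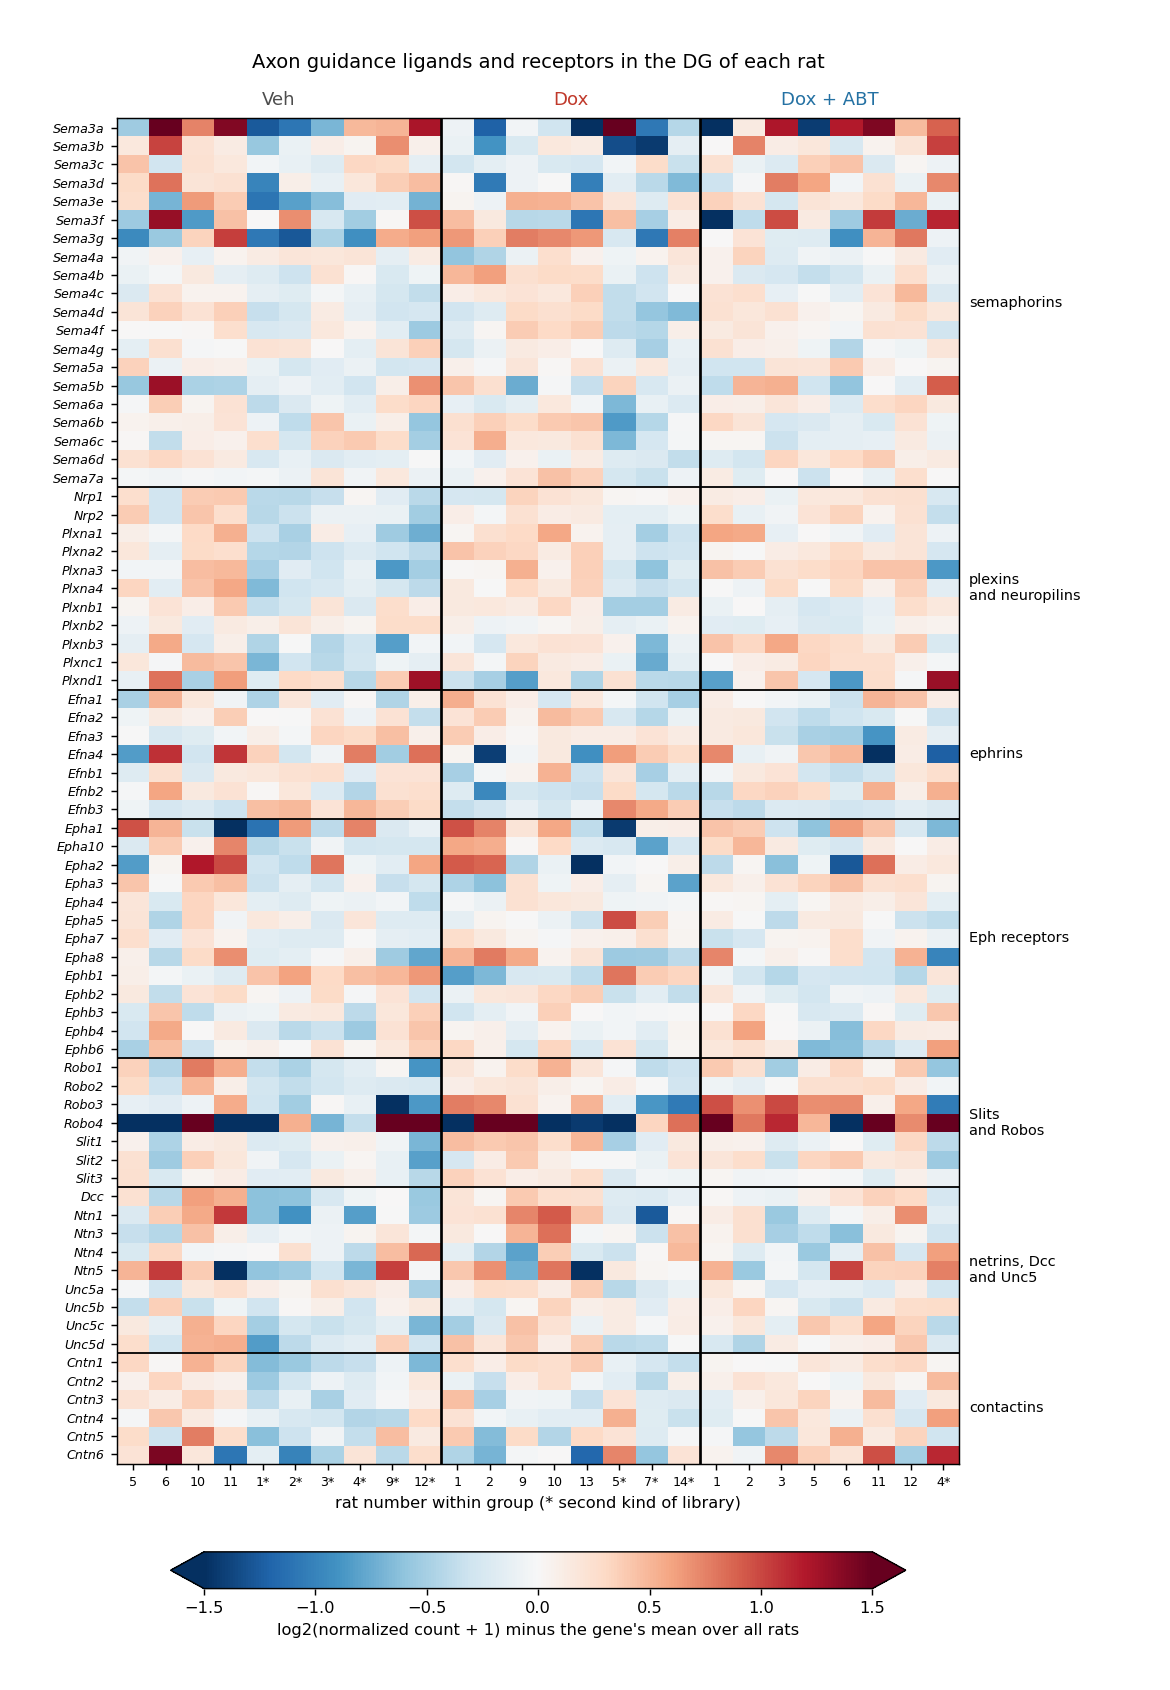
Level of the 73 tested members (rows, by family) in each of the 26 rats (columns, by group and kind of library), as log2(normalized count + 1) minus the mean of the gene over all rats, with colours ending at 1.5 in either direction. Most rows show no block that follows the groups, and the widest scatter belongs to low genes such as Robo4 and Sema3a.

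The members' spread between rats of 1 group was like that of other genes, with a median SD of 0.31 on the log2 scale over the 73 members and 0.30 over all tested genes. The smallest spread was that of Plxnb2, with an SD of 0.12 around 1707 normalized counts, and the largest that of Robo4, with an SD of 1.87 around 11.9. Of the 73 members, 9 had a mean under 50 normalized counts, and changes in these are the least certain. The deposited values carry no transcript length that could be used, so levels are not compared between genes.

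Differences were tested with limma on log2(normalized count + 1) in 1 fit over the 3 groups, and a gene was called at an unadjusted p under 0.01, the threshold of the study. Between Dox and Veh, 2 of the 73 members (2.74%) were called, against 2.87% of all tested genes, and both were lower in Dox: Sema3b and Efnb2. Of all genes, 1.02% were called higher and 1.85% lower. Between Dox + ABT and Veh, 4 members (5.48%) were called, against 7.84% of all genes (3.89% higher, 3.95% lower). Plxnb3 rose, while Ephb1, Efnb3 and Plxnb2 fell. Between Dox + ABT and Dox, 6 members (8.22%) were called, against 4.03% of all genes (1.71% higher, 2.32% lower), with Sema3b, Sema3d, Efnb2 and Epha3 higher and Efna3 and Sema4b lower after ABT-263. With every library set to the same total, the calls over all genes went from 159 higher and 289 lower to 315 and 143 between Dox and Veh, from 606 and 616 to 1916 and 92 between Dox + ABT and Veh, and from 267 and 362 to 382 and 156 between Dox + ABT and Dox. The members then called were 3, 5 and 5, all higher. Of the 12 calls above, the 5 on the higher side remained under that scaling, and the 7 on the lower side kept their direction but were lost. With the scaling as deposited, in the first comparison the members' share was near that of all genes, in the second it was below, and in the third it was above.

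After Benjamini-Hochberg adjustment over all tested genes, 0 members had an adjusted p under 0.05 in any comparison, against 0.0192% of all genes between Dox and Veh and 0% in both other comparisons. The smallest adjusted p of a member was 0.307 between Dox and Veh, 0.11 for Dox + ABT against Veh, and 0.186 for Dox + ABT against Dox. At an unadjusted p under 0.05 the members numbered 10 (13.7%), 7 (9.59%) and 12 (16.4%), against 10.2%, 22.5% and 12.7% of all genes. The median difference of the 73 members was 0.05, 0.09 and 0.04 on the log2 scale in these comparisons, while the median over all tested genes lay within 0.005 of 0. With library kind as a covariate the members' medians were 0.007, -0.02 and -0.036, and 38, 29 and 32 of the 73 were on the higher side in place of 44, 48 and 41. Within the first kind the medians were -0.019, -0.066 and -0.017, so the lean to the higher side did not hold there. The comparisons share rats: Dox enters the first and the third, Veh the first and the second, and Dox + ABT the second and the third, so a gene that is low in Dox appears in both the first and the third.

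With library kind as a covariate, 2 members were called between Dox and Veh, against 2.7% of all genes, namely Sema3b and Sema4d, both lower in Dox. Between Dox + ABT and Veh, 1 member was called, against 1.37% of all genes: Efna2, lower in Dox + ABT. None of the 4 calls made without the covariate remained in that comparison. In the last comparison, Dox + ABT with Dox, 5 members were called, against 4.76% of all genes, and 4 of the 6 calls remained: Efnb2 and Sema3b higher, Efna3 and Sema4b lower. The fifth was Slit1, lower in Dox + ABT. Epha3 and Sema3d kept their direction at p = 0.0118 and p = 0.0128.

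**Figure D2:**
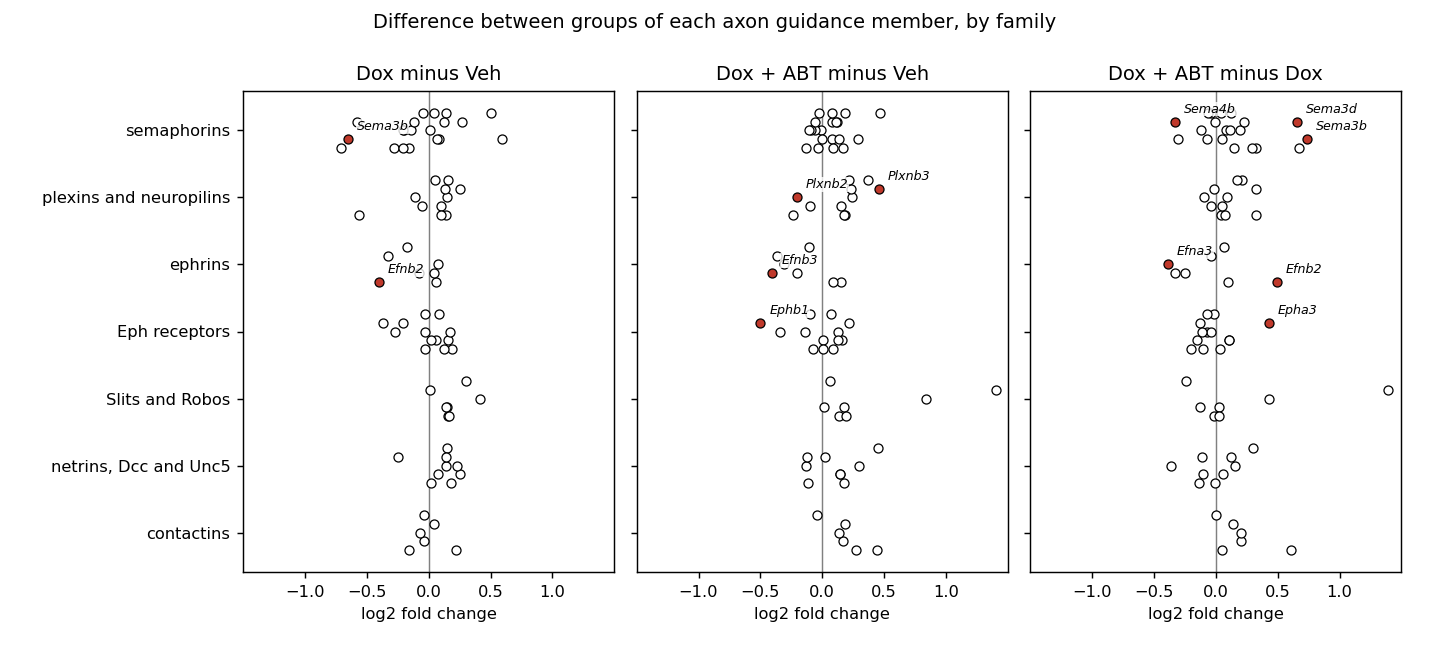
Log2 fold change of each of the 73 members (points) by family in the 3 comparisons, with filled and named points for members with an unadjusted p under 0.01 in limma's test. The 2, 4 and 6 named members stand among unfilled points of similar size, and the farthest points, Robo4 at 1.41 and 1.39, did not pass the test.

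For 5 of the 6 members called between Dox + ABT and Dox, RefSeq holds a promoter in the GRCr8 assembly, and the 250 bases before the start are shown because these are the members whose level moved in the comparison that bears on ABT-263. Capitals mark the GC box, GGGCGG or its reverse complement CCGCCC, a common promoter element, searched on both strands.
Efnb2 (chr16:87484965-87485214, plus strand): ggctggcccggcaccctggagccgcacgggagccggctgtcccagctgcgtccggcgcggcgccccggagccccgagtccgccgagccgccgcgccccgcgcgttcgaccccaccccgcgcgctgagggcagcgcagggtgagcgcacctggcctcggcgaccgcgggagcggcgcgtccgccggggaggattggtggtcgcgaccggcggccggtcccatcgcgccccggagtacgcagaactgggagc
Epha3 (chr11:14920426-14920675, minus strand): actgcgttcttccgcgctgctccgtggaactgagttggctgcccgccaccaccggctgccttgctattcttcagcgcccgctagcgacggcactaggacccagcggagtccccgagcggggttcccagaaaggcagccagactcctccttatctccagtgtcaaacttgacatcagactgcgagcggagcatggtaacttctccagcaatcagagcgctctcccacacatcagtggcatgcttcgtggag
Sema3d (chr4:23460972-23461221, minus strand): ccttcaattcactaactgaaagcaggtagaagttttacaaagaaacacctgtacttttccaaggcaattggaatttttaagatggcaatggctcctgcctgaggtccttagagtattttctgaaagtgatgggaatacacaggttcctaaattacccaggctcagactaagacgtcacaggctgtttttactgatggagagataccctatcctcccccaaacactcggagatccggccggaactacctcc
Efna3 (chr2:177035839-177036088, minus strand): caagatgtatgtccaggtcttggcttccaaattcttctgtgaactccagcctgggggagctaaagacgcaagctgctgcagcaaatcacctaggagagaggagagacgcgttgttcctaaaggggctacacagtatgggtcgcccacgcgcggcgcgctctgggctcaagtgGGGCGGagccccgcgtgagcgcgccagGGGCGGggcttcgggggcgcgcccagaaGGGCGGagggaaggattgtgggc
Sema4b (chr1:143558547-143558796, plus strand): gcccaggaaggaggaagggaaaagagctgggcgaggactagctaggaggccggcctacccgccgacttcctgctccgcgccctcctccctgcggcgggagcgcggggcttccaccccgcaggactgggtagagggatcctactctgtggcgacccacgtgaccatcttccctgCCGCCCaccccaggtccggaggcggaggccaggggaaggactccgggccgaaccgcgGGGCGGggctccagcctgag

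The GC box stood 3 times in the Efna3 window and 2 times in that of Sema4b, both lower after ABT-263, and 0 times in the windows of Efnb2, Epha3 and Sema3d, which were higher. Of all 33469 promoter windows of the same length, 30.5% held it, as did 50.8% of the 59 windows that matched 58 of the members. The TATA box (TATAAA) was in none of the 59 windows and in 12.9% of all. The E-box CACGTG, which reads the same on both strands and does not overlap a GC box in the Sema4b window, was in that window 1 time, in 4 of the members' windows and in 5.59% of all. Guanine and cytosine made up 80.4% of the Efnb2 window, 44.8% of the Sema3d window and a median of 61.6% over the members' windows, against 51.2% over all. These matches describe letters only, and no binding was measured.

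Among the 20 semaphorins, the ligands of plexins, 3 were called in at least 1 comparison: Sema3b and Sema3d, which are secreted, and Sema4b, which spans the membrane. This was 15% of the semaphorins, where 10 of the 73 members (13.7%) and 12.4% of all tested genes were called in at least 1 comparison. Of the 20, 1 was called for Dox against Veh, 0 for Dox + ABT against Veh and 3 for Dox + ABT against Dox. Sema3b fell in Dox and was back near the level of Veh in Dox + ABT, Sema3d was higher in Dox + ABT than in Dox, and Sema4b was lower in Dox + ABT than in Dox. Between Dox and Veh 9 of the 20 semaphorins were on the higher side, and in Dox + ABT 12 against Veh and 13 against Dox. With every library set to the same total these numbers were 10, 20 and 17, and the median over all tested genes then stood at 0.10, 0.17 and 0.08.

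Sema3b (ENSRNOG00000016512) had 59.4 normalized counts in the lowest, 95.5 in the median and 179 in the highest Veh rat, 32.1, 77.7 and 98.8 in Dox, and 74.7, 97.5 and 180.1 in Dox + ABT. The low values of Dox came from 3 rats (7, 5 and 2), while its other 5 rats lay within the range of Veh, so the groups overlapped. The mean was 104 ± 33.7 (SD, n = 10) in Veh, 68.3 ± 26.8 (n = 8) in Dox and 110.0 ± 35.6 (n = 8) in Dox + ABT. Sema3b fell by 0.66 ± 0.22 (SE) on the log2 scale from Veh to Dox (limma, p = 0.00678, adjusted p = 0.307; exact permutation test, two-sided, p = 0.0224), and 6 of 8 Dox rats were below the Veh median. Within the second kind of library the difference was -1.01 (p = 0.00681) and within the first kind -0.57 (p = 0.0249). Dox + ABT exceeded Dox by 0.74 ± 0.24, or 1.67-fold (p = 0.00421, adjusted p = 0.193; exact permutation p = 0.0143), and was 0.08 ± 0.22 above Veh (p = 0.721), or -0.06 with the covariate (p = 0.807). The excess over Dox was 0.34 within the first kind (p = 0.115). The call between Dox and Veh was lost without Veh 6 or 9 or Dox 2, 5 or 7, with values from -0.60 to -0.52, and that between Dox + ABT and Dox without Dox 2, 5 or 7 or Dox + ABT 2 or 4, with values from 0.60 to 0.68.

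Sema3d (ENSRNOG00000007202), a low gene, had 9.91, 24.1 and 37.1 normalized counts (lowest, median and highest) in Veh, 9.39, 16.9 and 20.9 in Dox and 16.5, 22.5 and 35.8 in Dox + ABT. Of the 8 Dox + ABT rats, 7 lay above the Dox median and 4 above every Dox rat. Dox + ABT exceeded Dox by 0.65 ± 0.23 on the log2 scale (p = 0.0085, adjusted p = 0.243; exact permutation p = 0.00948), and Dox differed from Veh by -0.58 ± 0.22 (p = 0.0138). Dox + ABT and Veh differed by 0.08 ± 0.22 (p = 0.724), or -0.22 within the first kind (p = 0.445). The difference between Dox + ABT and Dox was 0.64 with the covariate (p = 0.0128) and 0.59 within the first kind (p = 0.0375), and the call was lost in both. It was also lost without Dox 2, 7, 13 or 14 or Dox + ABT 3, 4, 5 or 11, with values from 0.56 to 0.66.

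Sema4b (ENSRNOG00000025167) had 259, 303 and 374 normalized counts in Veh, against 258, 383 and 489 in the Dox group and 249, 287 and 379.6 in Dox + ABT. All 8 Dox + ABT rats were below the Dox median, though only 1 was below every Dox rat. Sema4b fell by 0.33 ± 0.11 from Dox to Dox + ABT (p = 0.00724, adjusted p = 0.231; exact permutation p = 0.0241), and within the first kind of library the difference was -0.51 (p = 0.000151). Dox stood 0.27 ± 0.11 above Veh (p = 0.0173), and Dox + ABT differed from Veh by -0.06 ± 0.11 (p = 0.606), or -0.15 with the covariate (p = 0.179). Within the first kind Sema4b ran from 379 to 489 in Dox and from 292 to 353 in Veh. Within the second kind its medians were 298 in Dox and 293 in Veh. The call between Dox + ABT and Dox was lost without Dox 1, 2, 9, 10 or 13 or Dox + ABT 2, 3, 5 or 6, with values from -0.32 to -0.27.

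Sema3e, a secreted ligand of Plxnd1, had 93.5, 153 and 313 normalized counts in Veh, against 175, 230.2 and 291 in the Dox group and 166, 231 and 284 in Dox + ABT. All 8 rats of either Dox group were above the Veh median, but neither difference passed the threshold: 0.51 ± 0.19 for Dox (p = 0.0109) and 0.46 ± 0.19 for Dox + ABT (p = 0.0185). With the covariate these were 0.40 (p = 0.0198) and 0.24 (p = 0.181), and within the first kind of library 0.14 (p = 0.51) and 0.06 (p = 0.78). Sema4c, which spans the membrane, differed by 0.18 ± 0.11 between Dox + ABT and Veh (p = 0.103), or 0.04 with the covariate (p = 0.715). Sema4d, a transmembrane ligand of Plxnb1, differed by -0.25 between Dox and Veh with library kind as a covariate (p = 0.00956) and by -0.16 without it (p = 0.23). The other semaphorins differed from group to group by -0.71 to 0.67. Both ends were the low Sema3a, in Dox against Veh and in Dox + ABT against Dox. Between Dox and Veh the variable Sema3g had the highest value, 0.595.

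Choroid plexus and meningeal markers mostly lay on the same side as Sema3b and Sema3d, though 1 of them was called in each comparison with Dox. Of 12 listed markers 11 were in the values and 8 were tested. Of these 8, 6 were on the lower side between Dox and Veh, where 51.1% of all tested genes were on the higher side, and 8 on the higher side between Dox + ABT and Dox, where 50.2% of all genes were. Lum, a proteoglycan of meningeal fibroblasts and the called one, differed by -0.90 (p = 0.00151) and 0.77 (p = 0.00818), and Ttr, the main transcript of the choroid plexus, by -0.54 (p = 0.367) and 1.63 (p = 0.0147). In normalized counts, the summed level of the list ran from 267 to 564 for Veh, 264 to 420.5 for Dox and 308 to 952 for Dox + ABT, and Folr1, Kl and Clic6 were at 0 in at least 1 library. Some markers of other cells were also lower in Dox than in Veh, where 1.85% of all genes were called lower. On the higher side were 2 microglia, 3 astrocyte and 1 oligodendrocyte markers. Called lower were 4 of 8 microglia markers (median of the list -0.43), 3 of 8 astrocyte markers (median -0.11) and 3 of 10 oligodendrocyte markers. None of these lists had a marker called higher. With the covariate 2, 3 and 2 were called, and within the first kind 1, 2 and 2. The part of any of these markers in the differences of Sema3b, Sema3d and Efnb2 was not tested. In bulk tissue, fewer cells of a type and less RNA per cell cannot be told apart.

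**Figure D3:**
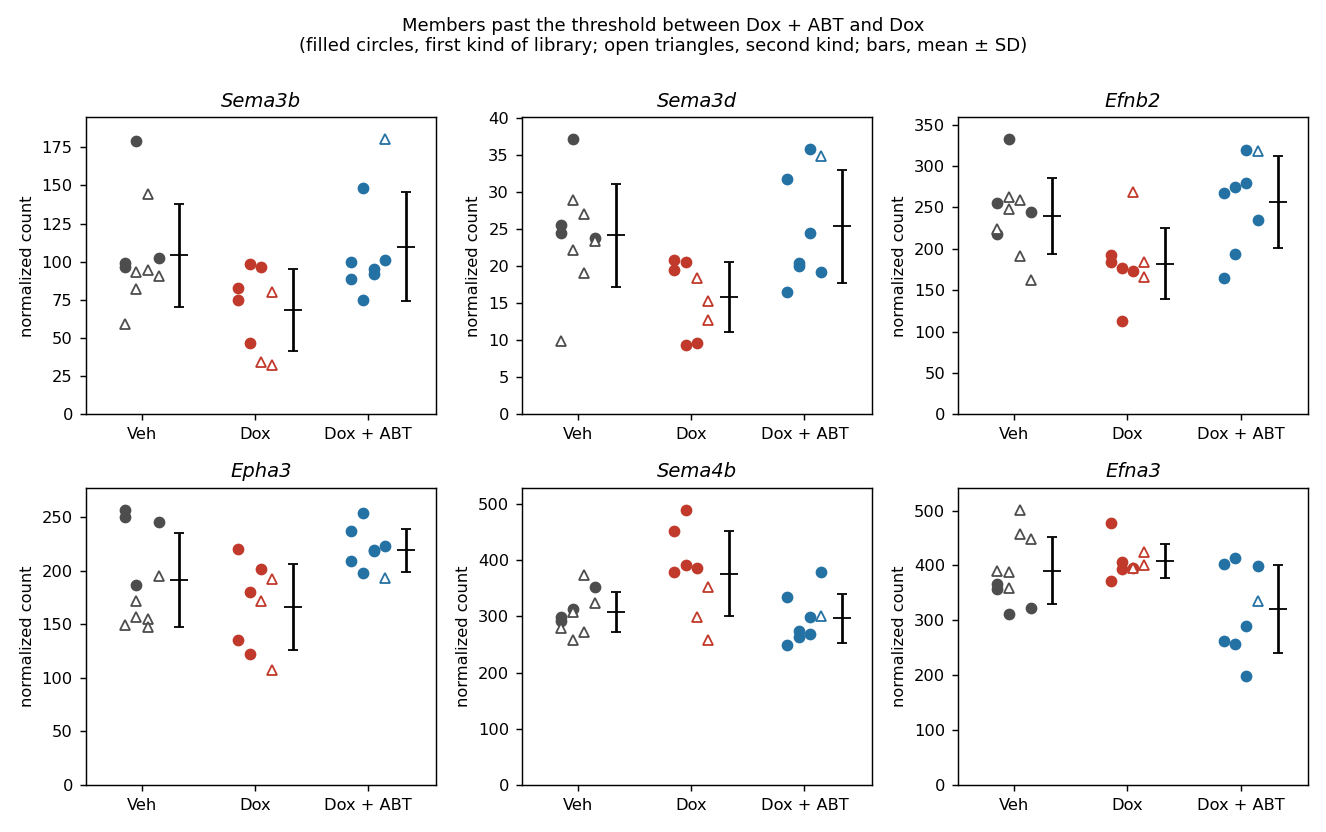
Normalized counts of the 6 members called between Dox + ABT and Dox in each rat, by group, with means and SDs and the kind of library as the marker. The means of Sema3b, Sema3d, Efnb2 and Epha3 are lower in Dox than in Dox + ABT and those of Sema4b and Efna3 higher, and in every panel the rats of the groups overlap.

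Of the 11 plexins and neuropilins, the receptors of semaphorins, 2 (18.2%) were called in at least 1 comparison, against 12.4% of all genes (0 with library kind as a covariate). Both were called between Dox + ABT and Veh, and both are plexins of the B class. Plxnb3 rose and Plxnb2 fell. On the higher side were 8 of 11 in each of the 3 comparisons, and with library kind as a covariate these numbers were 5 between Dox and Veh, 3 for Dox + ABT against Veh and 4 for Dox + ABT against Dox.

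Plxnb3 (ENSRNOG00000061731) had 295.5, 459.8 and 781 normalized counts in Veh, against 331, 530.4 and 613 in the Dox group and 449, 655 and 789.9 in Dox + ABT. Of the 8 Dox + ABT rats, 7 were above the Veh median, the exception being Dox + ABT 4, the one of the second kind. The difference was 0.46 ± 0.14, or 1.37-fold (p = 0.00328, adjusted p = 0.11; exact permutation p = 0.00887). It was 0.27 with library kind as a covariate (p = 0.0436) and 0.28 within the first kind (p = 0.0458). Against Dox it was 0.33 ± 0.15 (p = 0.0382). Plxnb3 is known from oligodendrocytes, and of 10 oligodendrocyte markers, all tested, 5 were on the higher side between Dox + ABT and Veh, with a median of 0.02, and 1 was called, Opalin at 0.63 (p = 0.00224). Of the 10, 9 were on the lower side between Dox and Veh, where Plxnb3 differed by 0.13, and the median of the 10 markers was -0.30, with 3 called lower. Dox + ABT against Dox gave 9 on the higher side, with a median of 0.32, and 3 called, all higher. The summed level of the 10 markers was 44820 to 123800 for Veh, 48170 to 73330 for Dox and 52020 to 108900 for Dox + ABT, none was at 0 in any library, and their part was not tested.

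Plxnb2 (ENSRNOG00000007133) had 1509, 1836 and 2054 normalized counts in Veh, against 1546, 1681 and 1809 in the Dox group and 1454, 1534 and 1788 in Dox + ABT. Each of the 8 Dox + ABT rats was below the Veh median. Plxnb2 fell by 0.21 ± 0.07 on the log2 scale from Veh to Dox + ABT (p = 0.00359, adjusted p = 0.11; exact permutation p = 0.00539). With every library set to the same total the difference was -0.04 (p = 0.57). With library kind as a covariate it was -0.17 (p = 0.0159).

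Plxnd1, a plexin of endothelial cells among others, had a median of 315 normalized counts in Veh, against 195 in the Dox group and 264 in Dox + ABT. All 8 Dox rats were below the Veh median, and the difference was -0.56 ± 0.24 (p = 0.0286), or -0.48 with the covariate (p = 0.0513). Plxna2, a receptor of semaphorins, stood 0.25 ± 0.12 higher in Dox than in Veh (p = 0.0425), or 0.14 with the covariate (p = 0.032). Nrp1 and Nrp2, the co-receptors of secreted semaphorins, were called in none of the comparisons.

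**Figure D4:**
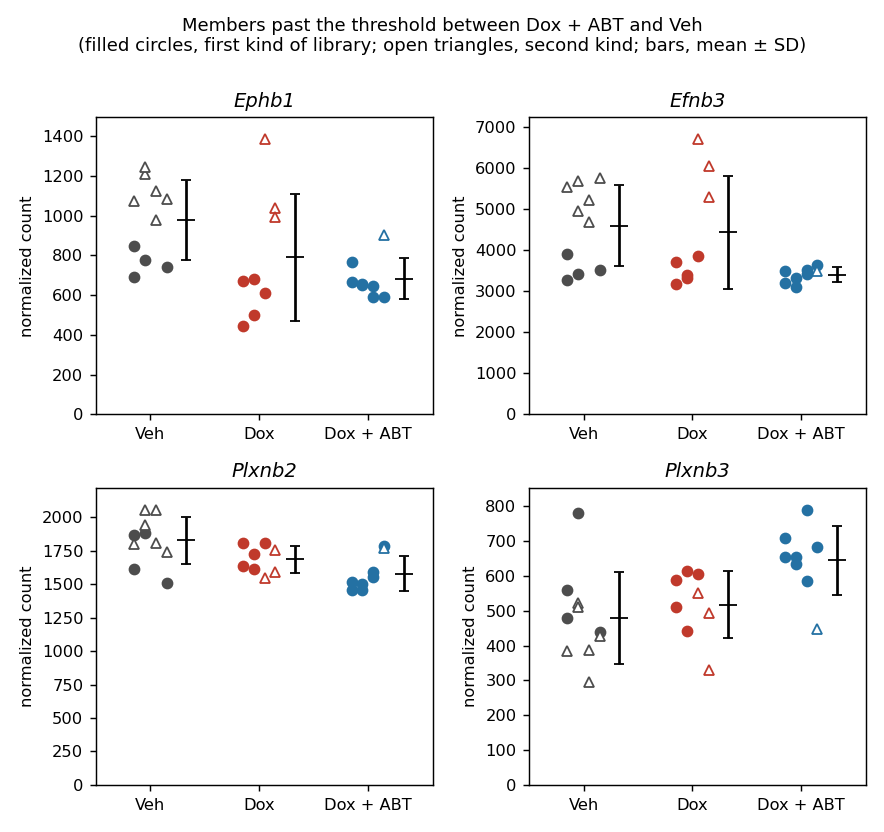
Normalized counts of the 4 members called between Dox + ABT and Veh in each rat, by group, with means and SDs and the kind of library as the marker. For Ephb1 and Efnb3 the open triangles of the second kind lie above the filled circles within Veh and within Dox, and the filled circles of Veh overlap those of Dox + ABT in every panel.

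Of the 7 tested ephrins, 3 were called in at least 1 comparison, against 12.4% of all genes: 1 for Dox against Veh, 1 for Dox + ABT against Veh and 2 for Dox + ABT against Dox. Efnb2, a transmembrane ephrin best known as a marker of arteries, fell in Dox and was higher in Dox + ABT than in Dox. Efna3, tethered to the membrane by a lipid anchor, was lower in Dox + ABT than in Dox. Efnb3, a transmembrane ephrin of neurons, fell from Veh to Dox + ABT. Of the 7 ephrins 2 were on the higher side between Dox + ABT and Veh, with a median of -0.20, against -0.001 over all tested genes.

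Efnb2 (ENSRNOG00000014648) had 162, 246 and 332 normalized counts in Veh, against 113, 180.3 and 268 in the Dox group and 165, 271 and 319 in Dox + ABT. Apart from Dox 5, all Dox rats lay below the Veh median, and 4 of the 8 Dox + ABT rats lay above every Dox rat. The means were 239.7 ± 45.8 (SD, n = 10), 182 ± 42.6 (n = 8) and 257 ± 55.5 (n = 8). Efnb2 fell by 0.40 ± 0.15 from Veh to Dox (p = 0.00958, adjusted p = 0.34; exact permutation p = 0.0122). The difference was -0.39 with the covariate (p = 0.0133), -0.65 within the first kind of library (p = 0.00277) and -0.13 within the second (p = 0.504). This call was near the threshold and was lost without any 1 of 19 rats (Veh 1, 2, 5, 6, 9, 10, 11 or 12, Dox 1, 2, 7, 9, 10, 13 or 14, or Dox + ABT 2, 3, 5 or 12), with values from -0.42 to -0.31. Dox + ABT exceeded Dox by 0.49 ± 0.15, or 1.41-fold (p = 0.00321, adjusted p = 0.186; exact permutation p = 0.0131). That difference was 0.55 within the first kind (p = 0.00336), and of the 26 rats it was lost without 1, Dox 2, at 0.40. Dox + ABT and Veh differed by 0.09 ± 0.15 (p = 0.543), or -0.10 within the first kind (p = 0.591).

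Endothelial and mural markers moved in both directions beside Efnb2. Of 10 listed, 9 were in the values and tested, and none was at 0 in any library. Slco1a4, a transporter of the blood-brain barrier, differed by -0.96 between Dox and Veh (p = 0.0011) and by 0.91 between Dox + ABT and Dox (p = 0.00289), while Kdr, a receptor of vascular endothelial growth factor, was 0.81 higher in Dox than in Veh (p = 0.000538). Of the 9, 5 were on the higher side between Dox + ABT and Dox. In normalized counts, the summed level was 1737 to 5020 for Veh, 1992 to 3581 for Dox and 1800 to 3456 for Dox + ABT, and its part was not tested.

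Efna3 (ENSRNOG00000057322) had 311, 377 and 501 normalized counts in Veh, against 372, 398.5 and 477 in the Dox group and 199, 312.5 and 414 in Dox + ABT. The Dox rats were tightly grouped, and 5 Dox + ABT rats lay below every Dox rat while 3 lay among them. Efna3 fell by 0.39 ± 0.13 from Dox to Dox + ABT (p = 0.00465, adjusted p = 0.201; exact permutation p = 0.0143). The difference was -0.35 with the covariate (p = 0.00879) and -0.41 within the first kind (p = 0.0163), where the call was lost. It was also lost without Dox 1 or Dox + ABT 5, 6 or 11, with values from -0.36 to -0.30. Against Veh the difference was -0.31 ± 0.12 (p = 0.0146), or -0.14 within the first kind (p = 0.411).

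Efnb3 (ENSRNOG00000010320) had 3283, 4823 and 5746 normalized counts in Veh, against 3175, 3787 and 6697 in the Dox group and 3101, 3461 and 3650 in Dox + ABT. Each of the 8 Dox + ABT rats was below the Veh median, and the difference was -0.40 ± 0.14 (p = 0.00719, adjusted p = 0.118; exact permutation p = 0.00407). In Veh the rats of the second kind ran from 4680 to 5746 and those of the first kind from 3283 to 3897, so that the kinds did not overlap. Within the first kind the difference was -0.06 (p = 0.445) and with the kind as a covariate -0.14 (p = 0.121). The call was lost without Veh 1, 2, 3, 4, 9 or 12 or Dox + ABT 1, 2, 6 or 11, with values from -0.41 to -0.37. Efnb1, another transmembrane ephrin, had the second smallest p between Dox and Veh in this family, at -0.18 ± 0.13 (p = 0.179), or -0.05 within the first kind (p = 0.798), and Efna2 differed by -0.34 between Dox + ABT and Veh with the covariate (p = 0.00872) and by -0.20 without it (p = 0.116).

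Of the 13 Eph receptors, 2 (15.4%) were called in at least 1 comparison, against 12.4% of all genes, and 0 in any comparison with library kind as a covariate. Ephb1, which binds transmembrane ephrins, fell from Veh to Dox + ABT, and Epha3, which binds anchored ephrins, was higher in Dox + ABT than in Dox. The other 11 receptors differed between groups by -0.34 to 0.19. On the higher side were 7 of 13 between Dox and Veh, 8 for Dox + ABT against Veh and 4 for Dox + ABT against Dox. With every library set to the same total these numbers were 10, 11 and 7.

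Ephb1 (ENSRNOG00000007865) had 693, 1027 and 1245 normalized counts in Veh, against 447, 675 and 1384 in the Dox group and 590.4, 653 and 902 in Dox + ABT. Each of the 8 Dox + ABT rats was below the Veh median and 6 were below every Veh rat. The difference was -0.50 ± 0.17, or 0.708-fold (p = 0.00614, adjusted p = 0.116; exact permutation p = 0.00192). In each group the rats of the second kind lay above all of the first: 979 to 1245 against 693 to 846 in Veh, 995.5 to 1384 against 447 to 679 in Dox, and 902 against 590.4 to 768 in Dox + ABT. With library kind as a covariate the difference was -0.17 (p = 0.102), and within the first kind -0.23 (p = 0.0544). Between Dox and Veh it was -0.37 ± 0.17 (p = 0.0349), -0.22 with the covariate (p = 0.0288), -0.41 within the first kind (p = 0.00281) and 0.01 within the second (p = 0.911). The call between Dox + ABT and Veh was lost without Veh 1, 2, 4, 9 or 12 or Dox + ABT 2, 3, 6, 11 or 12, with values from -0.49 to -0.46.

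Epha3 (ENSRNOG00000030285) had 148, 179 and 257 normalized counts in Veh, against 107, 176 and 219.9 in the Dox group and 193, 219 and 254 in Dox + ABT. All 8 Dox + ABT rats were above the Dox median and 3 were above every Dox rat. The difference was 0.43 ± 0.15, or 1.35-fold (p = 0.006, adjusted p = 0.225; exact permutation p = 0.0042), and 0.40 within the first kind (p = 0.00849). With the covariate it was 0.35 (p = 0.0118) and no longer called. The call was also lost without Dox 1, 2 or 14 or Dox + ABT 5 or 6, with values from 0.35 to 0.41. Epha7, another receptor of anchored ephrins, was 0.16 ± 0.08 higher in Dox than in Veh (p = 0.0559) and differed by -0.15 ± 0.08 from Dox to Dox + ABT (p = 0.0835). Within the first kind these were 0.02 (p = 0.892) and -0.14 (p = 0.184). For Epha7, all 8 Dox rats exceeded the median of Veh.

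Of the 7 Slits and Robos, secreted repellents and their receptors, none was called in any comparison over all libraries without the covariate. All 7 were on the higher side in Dox and in Dox + ABT against Veh, where 51.1% and 49.9% of all tested genes were, with medians of 0.15 and 0.18. With library kind as a covariate, 7 and 4 of them were, with medians of 0.10 and 0.05. Robo3, a divergent Robo that controls midline crossing, had 156, 682 and 1111 normalized counts in Veh, against 363, 838 and 1293 in the Dox group and 364, 1222 and 1508 in Dox + ABT. Of the 8 Dox + ABT rats, 7 exceeded the median of Veh, and the difference was 0.84 ± 0.31 (p = 0.0106), just above the threshold. It was 0.34 with library kind as a covariate (p = 0.167) and 0.63 within the first kind (p = 0.00169). Robo3 was also the member with the largest difference between the kinds of library, at -1.05 from the first to the second.

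Slit1 had 3133, 5037 and 5571 normalized counts in Veh, against 3552, 6334 and 7085 in the Dox group and 3834, 4887 and 6248 in Dox + ABT. All 8 Dox + ABT rats were below the Dox median, and the difference was -0.24 ± 0.14 (p = 0.0905), or -0.32 with library kind as a covariate (p = 0.00977) and -0.41 within the first kind (p = 0.000876). Dox stood 0.30 ± 0.13 above Veh (p = 0.0268). Within the first kind Slit1 ran from 6056 to 7085 in Dox and from 3650 to 5571 in Veh. Within the second kind its medians were 4461 in Dox and 4637 in Veh. Slit3 differed by 0.14 ± 0.08 between Dox and Veh (p = 0.106), and Robo2 by 0.18 ± 0.10 between Dox + ABT and Veh (p = 0.0911), with all 8 Dox + ABT rats above the Veh median. That difference of Robo2 was 0.05 with the covariate (p = 0.605) and -0.05 within the first kind (p = 0.694). Robo4, a Robo of endothelial cells, ranged from near 0 to 42.7 normalized counts, and its difference of 1.39 ± 0.86 between Dox + ABT and Dox (p = 0.118) did not pass the threshold.

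Of the 9 netrins and netrin receptors, none was called. Between Dox and Veh 8 of 9 were on the higher side, with a median of 0.14. The covariate left 7 of 9, with a median of 0.06. Ntn3 had 68.0, 89.7 and 125 normalized counts in Veh, against 73.3, 98.1 and 164 in the Dox group and 59.5, 85.4 and 109 in Dox + ABT. The ranges overlapped widely, and Ntn3 differed by 0.23 ± 0.15 between Dox and Veh (p = 0.133) and by -0.36 ± 0.16 between Dox + ABT and Dox (p = 0.0281). Within the first kind these were 0.35 (p = 0.138) and -0.44 (p = 0.0409). Ntn4, a netrin of basement membranes, differed by -0.24 ± 0.18 between Dox and Veh (p = 0.186). The repellent netrin receptors Unc5a, Unc5b and Unc5c differed by -0.13 ± 0.11 (Unc5a, Dox + ABT and Dox, p = 0.253), 0.14 ± 0.11 (Unc5b, Dox + ABT and Veh, p = 0.198) and 0.29 ± 0.15 (Unc5c, Dox + ABT and Veh, p = 0.0596). Within the first kind Unc5a differed by -0.28 (p = 0.00889), Unc5b by 0.15 (p = 0.333) and Unc5c by 0.02 (p = 0.887), and with the covariate Unc5c by 0.13 (p = 0.371). Dcc, the attractive netrin receptor, passed the threshold in none of the comparisons.

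Of the 6 contactins, none was called. Cntn1 had 2264, 3136 and 5180 normalized counts in Veh, against 2831, 4087 and 4700 in the Dox group and 3608, 3833 and 4497 in Dox + ABT. All 8 Dox + ABT rats lay above the median of Veh, and the difference was 0.27 ± 0.14 (p = 0.0677), 0.01 with the covariate (p = 0.895) and -0.16 within the first kind of library (p = 0.0878). Cntn2, found at the juxtaparanodes of myelinated axons, differed by 0.17 ± 0.10 between Dox + ABT and Veh (p = 0.108) and by 0.21 ± 0.11 between Dox + ABT and Dox (p = 0.0663). Within the first kind these were -0.06 (p = 0.543) and 0.10 (p = 0.261). Cntn6 ran from 14.9 to 89.2 normalized counts in Veh, 13.9 to 55.3 in the Dox group and 22.9 to 73.05 in Dox + ABT and differed by 0.61 ± 0.30 between Dox + ABT and Dox (p = 0.055).

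Of the 73 members, 26 had several transcript rows, up to 5, and the rows were summed above. Tested row by row, 2 of the members' 101 rows (1.98%) were called between Dox and Veh, against 2.36% of all 20203 rows, 3 (2.97%) between Dox + ABT and Veh, against 6.39%, and 8 (7.92%) between Dox + ABT and Dox, against 3.25%. Rows of Cntn6, Epha5 and Sema4d passed the threshold although their sums did not, and they are named after their values were seen. The second of the 2 tested Cntn6 rows had a median of 11.7 normalized counts in Veh, against 0.0567 in the Dox group and 15.0 in Dox + ABT, and it was under 1 in 1 of 10 Veh, 5 of 8 Dox and 0 of 8 Dox + ABT rats. It differed by -2.58 between Dox and Veh (p = 0.000847) and by 2.83 between Dox + ABT and Dox (p = 0.000563). The first Cntn6 row had means of 16.1, 27.0 and 27.9, and did not pass the threshold. How reads were divided between rows was the authors' estimate, and rows of a gene can share reads. The third Epha5 row fell by 0.73 from Dox to Dox + ABT (p = 0.00651) and the third Sema4d row rose by 0.38 (p = 0.00249).

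Of 68 further axon guidance genes, among them co-receptors, adhesion molecules and the cytoplasmic partners of the receptors, 66 were tested. Between Dox and Veh 1 was called, Mical1, an oxidase that disassembles actin downstream of plexins, at 0.39 ± 0.13 (p = 0.00586), which is 1.52% of the 66 against 2.87% of all genes. With the covariate Mical1 differed by 0.33 and was no longer called (p = 0.0104). Compared with Veh, 6 were called in Dox + ABT (9.09%, against 7.84% of all genes). Fstl4 at -1.01 (p = 0.0026), Rgma, a ligand of neogenin, at -0.33 (p = 0.00512) and Ablim3, an actin-binding protein, at -0.26 (p = 0.00707) were lower. Vav2, a guanine nucleotide exchange factor, at 0.47 (p = 0.00442), the adhesion molecule L1cam at 0.28 (p = 0.00713) and Arhgef11, an exchange factor bound by B class plexins, at 0.31 (p = 0.00804) were higher. With library kind as a covariate Ablim3 alone of these remained, at -0.27 (p = 0.00851). Compared with Dox, 1 was called, Fstl4 at -0.92 ± 0.32 (p = 0.00799), or -0.61 with the covariate (p = 0.00344), against 4.03% of all genes called. With the first kind of library alone, 8 of the 66 were called in this last comparison, a larger share than the 8.21% of all genes. Dox against Veh then gave 2 calls (4.76% of all genes), and Dox + ABT against Veh gave 0 (1.1% of all genes).

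The kinds of library themselves differed in many members, which is described here without a test since the kinds were drawn from these values. In the second kind 52 of the 73 members were lower and 21 higher, against 7656 lower and 7939 higher of all tested genes. The lower ones included the receptors Robo3 (-1.05), Epha8 (-0.73), Plxna3 (-0.70) and Robo1 (-0.60) and the ligand Ntn1 (-0.84). The higher ones included Ephb1 (0.69) and Efnb3 (0.57), which form a receptor and ligand pair, and Robo4 (0.95), whose mean normalized counts were close, 11.9 in both kinds. Differences over 0.5 on the log2 scale were seen in 15.1% of the members and 19.5% of all genes. Ephb1 and Efnb3, the members that fell most from Veh to Dox + ABT, were also, after Robo4, the members with the largest upward difference between the kinds.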

How the data were processed

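RNA from the DG of 26 rats was measured with 1 library per rat. The deposited signal is a table of counts per transcript row that the authors divided by each library's Median Ratio factor. Per the methods and the submitters' processing notes, Ion Proton reads were aligned to rn6 with STAR 2.5.3a in Partek Flow. Reads per library are not given in the sources used here, and the values hold fractions of reads, so no test for counts was run. Groups came from the sample labels, and every column was mapped to a sample.

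Rows of a gene ID were summed, and log2(value + 1) of the 15595 genes that averaged 5 or more was fitted in R 4.3.3 with limma 3.58.1 (3 groups, no covariate, eBayes with a variance trend, two-sided), with p-values adjusted by the Benjamini-Hochberg method over all tested genes. The threshold of 0.01 is that of the study, which tested counts. Single members were also tested with an exact permutation test over all splits of the rats of 2 groups. The fit was tested on simulated data. Differences are on the log2(value + 1) scale, which understates those of low genes. Promoters came from RefSeq (GRCr8), a build other than that of the reads, and Python 3.11.15 with matplotlib 3.10.9 made the figures.

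Members called at p under 0.01 and the 2 members with the smallest p in each family and comparison are named. A part of the naming rule, on levels per kb of transcript, was not applied, since no transcript lengths were at hand. The members, the other gene lists and the rules were chosen with earlier results of these data known. Alternatives were pseudocounts of 0.5 and 5, no filter, a mean of at least 20, quantile normalization, the same total per library, no trend, robust eBayes, arrayWeights, the 2 compared groups alone, library kind as a covariate, the first kind alone, the replicate number as a block, transcript rows, and leaving out each rat. Outside this rule, Sema4d, Efna2, Nrp1, Nrp2, Dcc, the 3 transcript rows and the members at the ends of a range were named after their values were seen.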

Additional observations from a re-analysis of the deposited data

Results flagged for a closer look

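In 29 named members and 3 groups, 87 sets of values in all, the highest or lowest rat was looked for by Dixon's ratio of the gap to the range, and 5 sets had a rat that stood apart, where chance gives about 1 in 20 sets. Dox + ABT 4 was the highest rat of its group for Cntn2 (1536 normalized counts, the next at 1280) and for Plxnd1 (637, the next at 347). Veh 6 was the highest of its group for Cntn6 (89.2, the next at 39.7) and Veh 9 for Robo4 (42.7, the next at 22.5). Dox 14 was the lowest of its group for Robo2 (999, the next at 1213). None of these 5 members was called in any comparison.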

How the results depend on the processing

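Of the 12 calls, none changed direction under any of the 39 alternatives that were fitted for each. Several alternatives leave the difference itself unchanged, such as robust eBayes or leaving out a rat of the third group. The kept direction therefore carries little weight. The calls were kept in 350 of these fits and lost in 118. The number of called members changed by more than 1.5 times in these cases. Between Dox and Veh it went from 2 to 16 with arrayWeights, 1 with the 2 groups alone and 5 with the first kind of library alone. Of all genes, 20.2%, 2.02% and 4.76% were called in these fits. Between Dox + ABT and Veh the number of members went from 4 to 14 with arrayWeights, 1 with library kind as a covariate and 1 with the first kind alone. Of all genes, 34%, 1.37% and 1.1% were called there. Between Dox + ABT and Dox the number of members went from 6 to 1 with the replicate block, against 2.58% of all genes. Leaving out 1 rat gave 0 to 4, 2 to 6 and 1 to 7 called members, and the shares of all genes in those fits are not given here. The cause was not tested. With every library set to the same total, the called members were 3, 5 and 5, all higher, in place of 0 higher and 2 lower, 1 and 3, and 4 and 2, and the median of all tested genes moved to 0.10, 0.17 and 0.08. With the replicate block the count between Dox and Veh was 2, both higher and none shared with the first count, and between Dox + ABT and Veh 5. Of all genes, 4.91% and 7.57% were called there. The replicate numbers number different rats: the deviations of same-numbered rats correlated at -0.17 to 0.14 over 5 numbers in Dox and Veh, -0.14 to 0.3 over 8 in Dox + ABT and Veh, and 0.02 to 0.17 over 3 in Dox + ABT and Dox, and 2 of the last 3 correlated best with their own number. With the first kind of library alone, 20, 31 and 15 of the 73 members had the opposite sign in Dox against Veh, Dox + ABT against Veh and Dox + ABT against Dox, and with library kind as a covariate 12, 23 and 11. Of the members among the 2 with the smallest p of their family in a comparison, those that changed sign there were Cntn1 (-0.042 in Dox and -0.164 in Dox + ABT against Veh), Cntn2 (-0.06), Epha3 (-0.068) and Robo2 (-0.047), the last 3 in Dox + ABT against Veh and all with the first kind of library alone. The Cntn6 log2 fold change, Dox against Veh, was 0.151 with the replicate block, and -0.303 to 0.004 when 1 rat was left out, the value above 0 being that without Veh 6. Over all genes the calls went from 448 to 3150 between Dox and Veh, 1222 to 5297 between Dox + ABT and Veh and 629 to 1612 between Dox + ABT and Dox with arrayWeights, to 742, 172 and 1281 with the first kind alone, to 765 and 403 in the first and last comparison with the replicate block, to 214 in the second with the covariate and to 2008 in the second with the same total. Single calls were lost, with the same direction, under quantile normalization (Plxnb2, Efnb3 and Sema3d), without a variance trend (Efnb2 in Dox against Veh, and Efnb3), with arrayWeights (Efnb2 in Dox against Veh, Sema3b in both its comparisons, and Epha3) and with the 2 groups alone (Sema3b in Dox against Veh, Sema3d and Sema4b). Read depth was not available, so the counting error of the 9 members with a mean under 50 normalized counts could not be set beside their spread.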
